A study of Homo sapiens with 8 samples.

Results

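The ATP-binding cassette (ABC) family was examined in HCT116 cells, an established human colorectal cancer line. The study models self-seeding of tumours, in which cells that have left a tumour return to it. Members were the rows of the deposited count table whose gene symbol consists of ABC, a subfamily letter from A to G and a number, 46 of 39533 rows. Self-seeded cells (TSC, n = 3) and cells of the primary tumour (PC, n = 3) both came from the primary tumour, and circulating tumour cells (CTC, n = 2) came from blood. All 8 libraries are of the same cell line, and the labels give no genotype, treatment, time point or host for any group. The series title speaks of liver cancer, whereas the line is colorectal. The labels do not say whether replicates of a group came from separate animals or cultures, and each p-value therefore reflects the spread of these libraries alone, which may be technical.

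ABC proteins use ATP to carry substrates across membranes, and they are sorted into subfamilies by sequence. Subfamilies B, C and G hold the exporters of drugs and drug conjugates for which the family is known in cancer, among them P-glycoprotein (ABCB1), the multidrug resistance proteins (ABCC) and the breast cancer resistance protein (ABCG2). ABCA1 and ABCG1 hand cholesterol and phospholipid to apolipoproteins and lipoprotein particles. Their transcription is driven by the oxysterol-sensing liver X receptors (LXR), and macrophages are a cell type that depends on them. Other members serve mitochondria, peroxisomes and lysosomes, and subfamilies E and F have no membrane domain and act on ribosomes.

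Library totals ranged from 4578869 to 19264595 counts in TSC and PC, and were 957607 and 10524069 in CTC replicates 1 and 2. Values are counts per 1000000 counts of the library (CPM) after scaling by the trimmed mean of M-values (TMM). With 3 counts as the floor, a count of 0 allowed up to 2.99 CPM in CTC replicate 1 and up to 0.156 to 0.668 CPM in the other 7 libraries, for counting error only. The label of a colorectal line was set beside 12 epithelial markers. EPCAM was at 391 to 616 CPM and KRT8 at 2560 to 4900 CPM over all libraries. The intestinal transcription factor gene CDX2 was at 13.0 to 33.9 CPM. KRT20, CDX1 and LGALS4 were at 0 everywhere, and CDH17 and VIL1 were near 0, at most 0.415 and 0.997 CPM. These markers do not by themselves settle the colorectal label. The CTC libraries stood apart in their blood cell markers. A list of 14 leukocyte and macrophage genes summed to 481 and 178 CPM in CTC replicates 1 and 2, to 15.7 to 24.2 CPM in PC and to 27.6 to 53.2 CPM in TSC, and 8 erythroid genes summed to 195 and 252 CPM in CTC and to at most 1.59 CPM elsewhere.

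Counts of the whole family made up 0.101% to 0.129% of a library. Of the 46 members, 39 had a count in some library, 31 passed the filter on low counts and were tested, 8 had a few counts and were not tested, and 7 were at 0 in every library. Those at 0 were ABCA13, ABCB11 (the bile salt export pump), ABCC12, ABCC13 (annotated as a pseudogene in humans), ABCG5 and ABCG8 (which together secrete sterols into bile and gut lumen) and ABCF1, a translation factor gene that most cells express. ABCF1 lies within the major histocompatibility complex on chromosome 6 (30571442 to 30591522, hg38), where 68 of 130 protein-coding rows between positions 29602238 and 33200853 were at 0 everywhere (52.3%), against 3828 of 18934 rows elsewhere (20.2%). TAP1, a peptide transporter gene of the same family and region whose symbol the rule does not match, was also at 0, and a 0 in this stretch is therefore no measure of silence. The limits of the stretch were chosen after its values were seen.

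Lipid exporters were compared with drug exporters across the groups. ABCA1 was far higher in CTC than in PC or TSC, and both CTC libraries lay above every PC and TSC library. ABCG1, its partner in sterol efflux, lay in the same direction without passing the test. Among the 8 tested drug exporters ABCC3 alone passed a test, and it was lower in CTC. In TSC against PC 0 of 31 tested members were called, beside 0.505% of all tested genes. In CTC against PC 3 of 31 were called (9.68%), beside 3.92% of all tested genes, and 1 of these 3, ABCD2, passed the filter on low counts only through CTC, so 2 calls remain without it. In TSC against CTC 1 of 31 was called (3.23%), beside 0.898%.

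By direction, 0 members were higher and 0 lower in TSC against PC, beside 0.224% and 0.281% of all tested genes. DESeq2 and limma-voom also called 0, and 3 members, ABCA1, ABCB10 and ABCA2, had an unadjusted p under 0.05, against 10.3% of all genes. In CTC against PC 2 members were higher (ABCA1 and ABCD2), against 1.4% of all genes, and 1 was lower (ABCC3), against 2.52%. Unadjusted p under 0.05 was reached by 8 members there, against 23.6% of all genes. In TSC against CTC 1 member was lower (ABCA1), against 0.526% of all genes, and 0 were higher, against 0.372%. Unadjusted p under 0.05 was reached by 7 members there, against 16.7% of all genes. The family median was 0.05 in TSC against PC, −0.32 in CTC against PC and 0.28 in TSC against CTC, beside 0.01, −0.04 and 0.06 over all genes. The median in CTC against PC was the same with ABCD2 set to its bound.

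Members were also counted whose libraries of the compared groups did not overlap. In TSC against PC 3 members were higher in every library (9.68%, against 8.96% of all genes) and 5 were lower (16.1%, against 9.9%). In CTC against PC 6 were higher (19.4%, against 19.9%) and 9 lower (29%, against 24.7%). In TSC against CTC 5 were higher in every library (16.1%, against 15.4%) and 3 lower (9.68%, against 13%).

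ABCA1 (chromosome 9, 104781006 to 104928155, hg38) exports cholesterol and phospholipid to lipid-poor apolipoprotein A-I. Its level was 6.28, 2.76 and 4.78 CPM in PC replicates 1 to 3, 0, 1.91 and 0.633 CPM in TSC replicates 1 to 3, and 115 and 47.9 CPM in CTC replicates 1 and 2. These CTC values rest on 115 and 502 counts, and both exceeded every PC and TSC library. ABCA1 was 16.9-fold higher in CTC than in PC, with n = 2 and 3 (4.08 ± 0.52 on the log2 scale, ± SE; quasi-likelihood F test of edgeR, Benjamini-Hochberg adjusted p = 0.000727). It was 73.4-fold lower in TSC than in CTC (−6.20 ± 0.60, n = 3 and 2, edgeR adjusted p = 0.000117). Both calls held in all 15 alternative analyses run, with adjusted p of at most 0.00809 and 0.00256. TSC also lay below PC in every library, but this difference was not called (−2.12 ± 0.57, edgeR adjusted p = 0.147). It was called without TSC replicate 2, the highest TSC library for ABCA1 (−3.38, edgeR adjusted p = 0.0336). TSC replicate 1, at 0 counts, allows up to 0.668 CPM, which is below the lowest PC library.

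The promoter of ABCA1 is shown because it carries the element through which LXR is known to act, and that of ABCD2 because it is the other member that rose in CTC. Each window holds the 250 bases before the gene start on the gene's strand, from RefSeq on GRCh38.p14, the build hg38. Capitals mark matches to the GC box GGGCGG and to DR4, a direct repeat of AGGTCA with 4 bases of any kind between its copies and at most 2 mismatches, each searched on both strands.
ABCA1, chr9:104928156-104928405, minus strand: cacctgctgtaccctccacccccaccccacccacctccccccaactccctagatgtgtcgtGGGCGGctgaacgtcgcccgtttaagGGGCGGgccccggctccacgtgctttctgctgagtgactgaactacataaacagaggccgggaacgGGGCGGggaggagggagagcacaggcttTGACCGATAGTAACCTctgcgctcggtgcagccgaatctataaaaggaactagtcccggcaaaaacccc
ABCD2, chr12:39619804-39620053, minus strand: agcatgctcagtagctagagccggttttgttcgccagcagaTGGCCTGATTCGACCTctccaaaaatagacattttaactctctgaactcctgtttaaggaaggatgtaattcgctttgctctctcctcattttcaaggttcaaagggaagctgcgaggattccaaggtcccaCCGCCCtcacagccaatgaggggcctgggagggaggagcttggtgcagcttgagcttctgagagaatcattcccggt

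In ABCA1 the repeat lay 69 to 54 bases before the start and read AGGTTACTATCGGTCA on the opposite strand, with 2 mismatches. In ABCD2 it lay 209 to 194 bases before the start and read AGGTCGAATCAGGCCA, also with 2 mismatches. A match of this kind was present in 714 of 35116 RefSeq promoter windows (2.03%). Promoter windows were given for 35 of the 46 members, 53 windows in all, and the repeat was found in 4 of them, those of ABCA1, ABCD2 and 2 windows of ABCC6, an exporter gene expressed in liver. ABCG1 and ABCC3 had no window and were not searched. The GC box was present in 42.6% of all windows and in 47.2% of the family's. The ABCA1 window holds 3 GC boxes and that of ABCD2 holds 1.

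ABCG1 (chromosome 21, 42199689 to 42297244, hg38) moves sterols towards high-density lipoprotein. It was at 4.10, 0.736 and 2.60 CPM in PC, 0.223, 1.98 and 2.44 CPM in TSC and 12 and 4.29 CPM in CTC. CTC replicate 2 exceeded the highest PC library by little, and PC and TSC overlapped. The difference between CTC and PC was not called (1.56 ± 0.86, edgeR adjusted p = 0.289), nor was that between TSC and CTC (−2.14 ± 0.88, edgeR adjusted p = 0.242) or TSC and PC (−0.58 ± 0.75, edgeR adjusted p = 0.845). At 1 to 50 counts per library, ABCG1 had a larger SE than ABCA1 in each comparison. The SE was 0.86 against 0.52 in CTC against PC, and 0.75 against 0.57 in TSC against PC.

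The summed leukocyte list, ABCA1 and ABCG1 were each higher in CTC replicate 1 than in CTC replicate 2. The summed list was 2.70-fold higher, ABCA1 2.40-fold and ABCG1 2.79-fold. Such a ratio between 2 libraries cannot show that genes move together. The erythroid list went the other way, at 195 and 252 CPM in CTC replicates 1 and 2. The leukocyte markers did not move as 1. Of the 12 with a count in CTC, 9 were higher in replicate 1 and 3 in replicate 2. Among the 3 were ITGAM (33.9 and 41.2 CPM) and FCER1G (2.99 and 4.20 CPM). CD14 (0 and 3 counts) and TYROBP (1 and 1 count) were near 0 in CTC. Of the 14 markers 9 were tested, and 7 of these were called higher in CTC than in PC and 0 lower. Among all tested genes 1.4% were called higher there. Outside CTC, PTPRC, SPI1 and ITGAM stayed at or below 0.503, 0.181 and 0.586 CPM. LYZ exceeded 0.668 CPM only in PC replicate 2, and LCP1 exceeded 0.503 CPM only in TSC replicate 3. These markers passed the filter on low counts only through CTC, so some difference was built into their tests. The leukocyte antigen gene PTPRC reached 31.9 and 7.63 CPM in the CTC libraries. The macrophage receptor gene CSF1R reached 55.9 and 16.3 CPM there, against at most 1.1 CPM in PC. CD163 and AIF1 were at 0 in all libraries, and AIF1 lies in the chromosome 6 stretch named above. The part of blood cells in the ABCA1 and ABCG1 levels of CTC was not tested, and in such bulk libraries more cells of a type and more RNA per cell cannot be told apart. In TSC the list summed to more than in PC, mostly through CD68 (21.3 to 49.2 CPM against 10.8 to 20.7 CPM), while ABCA1 was lower than in PC.

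**Figure D1:**
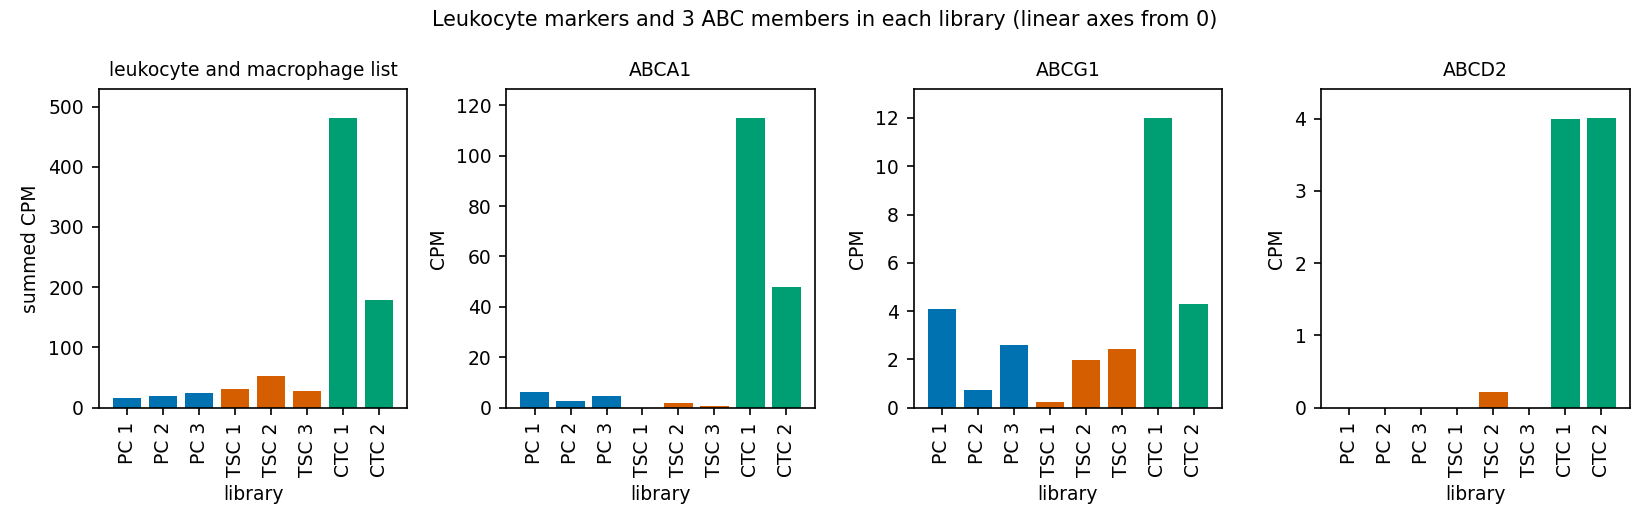
Bars give the summed CPM of 14 leukocyte and macrophage genes and the CPM of ABCA1, ABCG1 and ABCD2 in each of the 8 libraries, on linear axes that start at 0 (PC blue, TSC orange, CTC green). All 4 panels are highest in the CTC libraries, with the marker list at 481 and 178 CPM and ABCD2, from 4 and 42 counts, at 3.99 and 4.01 CPM.

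ABCC2 and ABCC4 were the drug exporters with the highest levels per length in every library. The set holds 14 rows (ABCB1, the ABCC rows and ABCG2), of which 8 were tested. ABCC2, an apical exporter of glutathione and glucuronide conjugates, was at 251, 268 and 259 CPM in PC, at 248, 203 and 194 CPM in TSC and at 177 and 154 CPM in CTC. Both CTC libraries lay below all others, and the fall against PC missed the threshold (−0.66 ± 0.18, edgeR adjusted p = 0.0578). ABCC2 was called lower in 6 of the 15 alternatives, whose adjusted p ran from 0.0119 to 0.329. It was not called in TSC against PC (−0.27 ± 0.16, edgeR adjusted p = 0.595) or TSC against CTC (0.39 ± 0.18, edgeR adjusted p = 0.302).

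ABCC3 (chromosome 17, 50634881 to 50692253, hg38), a basolateral exporter of glucuronides and bile salts, was the drug exporter called in the main test. It was at 26.1, 23.9 and 26.9 CPM in PC, 18.3, 21.0 and 14.1 CPM in TSC, and 16.0 and 5.25 CPM in CTC. PC lay above every library of the other groups, and CTC replicate 1 fell within the TSC range. ABCC3 was 3.15-fold lower in CTC than in PC (−1.66 ± 0.41, n = 2 and 3, edgeR adjusted p = 0.0387). The call rests largely on CTC replicate 2: without it the change was −0.69 (edgeR adjusted p = 0.461), and CTC replicate 1 has only 16 counts. The call was also lost without PC replicates 1, 2 or 3 (edgeR adjusted p = 0.106, 0.0944 and 0.118) or TSC replicate 3 (edgeR adjusted p = 0.0636). In TSC the difference from PC was not called (−0.53 ± 0.29, edgeR adjusted p = 0.576). Between TSC and CTC it was not called either (1.13 ± 0.41, edgeR adjusted p = 0.193), but passed without CTC replicate 1 (1.76, edgeR adjusted p = 0.0384).

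ABCC4, which exports cyclic nucleotides and prostaglandins, had its highest library in CTC. It was at 94.7, 94.7 and 73.7 CPM in PC, 107, 69.8 and 95.9 CPM in TSC and 122 and 102 CPM in CTC, a difference from PC that was not called (0.34 ± 0.22, edgeR adjusted p = 0.375). ABCC1, a broad exporter of drugs and glutathione conjugates, was at 12.5 to 16.6 CPM in PC, 11.4 to 17.4 CPM in TSC and 16.0 and 11.3 CPM in CTC, with full overlap of the groups. ABCC5, an exporter of nucleotide analogues, was at 22.0 to 28.8 CPM in PC, 17.8 to 38.1 CPM in TSC and 22.9 and 13.4 CPM in CTC. ABCC10 was at 15.7 to 17.9 CPM in PC, 16.3 to 20.3 CPM in TSC and 9.97 and 12.8 CPM in CTC, where both libraries lay below the rest (−0.52 ± 0.29 against PC, edgeR adjusted p = 0.282).

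The best known resistance genes were close to the limit of detection. ABCB1, the P-glycoprotein gene, was at 0.670, 0.736 and 0.935 CPM in PC, 1.78, 1.13 and 0.995 CPM in TSC and 0.997 and 0.572 CPM in CTC, from 1 to 18 counts per library. TSC lay above PC in every library, but the difference was not called (0.69 ± 0.83, edgeR adjusted p = 0.828). ABCG2 was at 1.84, 1.47 and 0.467 CPM in PC, 3.57, 2.05 and 0.814 CPM in TSC and 0 and 1.62 CPM in CTC, and all groups overlapped (TSC against PC 0.73 ± 0.86, edgeR adjusted p = 0.825). Both changes in TSC against PC were smaller than their standard errors, so neither a change nor its absence can be read from ABCB1 or ABCG2. ABCC6, ABCC8, ABCC9 and ABCC11 had 4, 8, 7 and 24 counts in all libraries together and were not tested. ABCC8 and ABCC9 encode sulfonylurea receptors that regulate potassium channels and are not known as drug exporters.

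**Figure D2:**
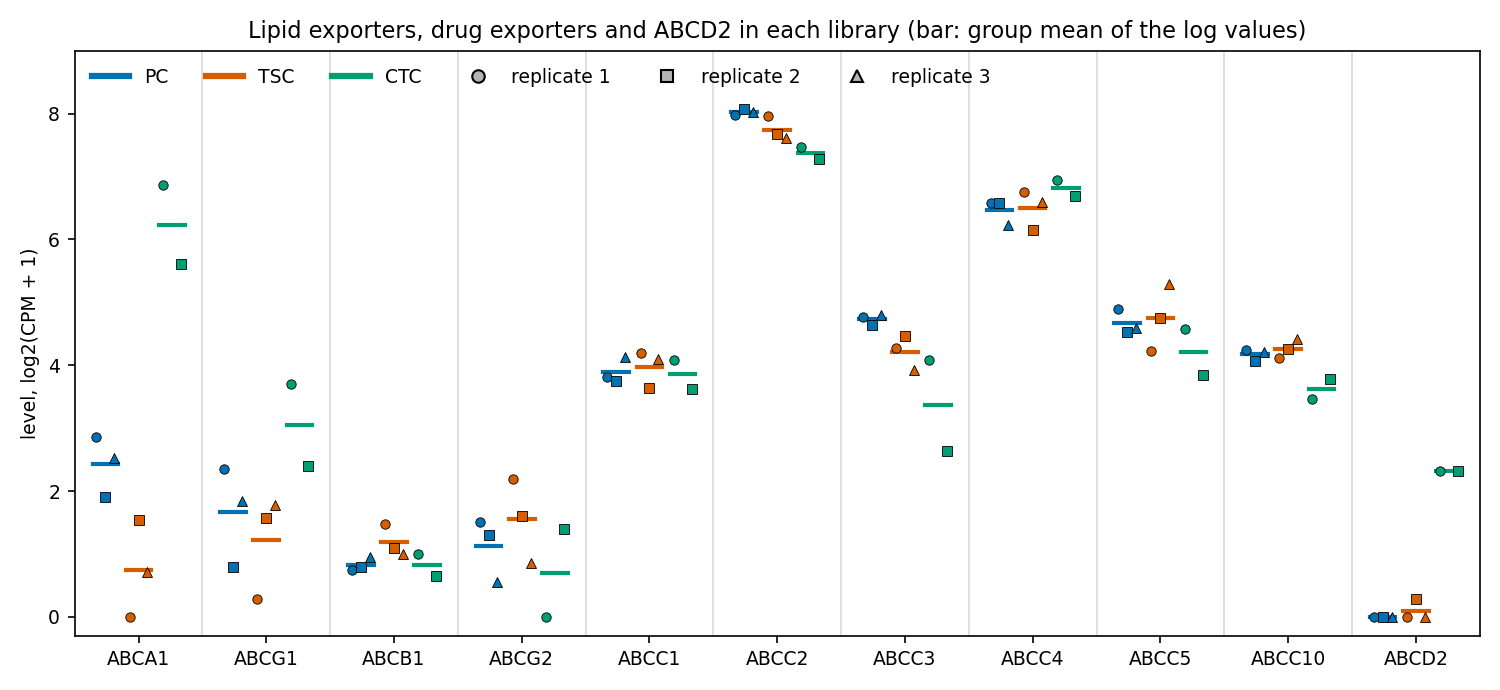
Each point is a library, drawn as log2(CPM + 1) for the 2 lipid exporters, the 8 tested drug exporters and ABCD2, and each bar is the mean of a group (PC blue, TSC orange, CTC green, marker shape for the replicate number). ABCA1 and ABCD2 in CTC lie above all other libraries, and ABCC2 leads the drug exporters in every library.

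Levels of different genes were compared per length, as CPM per kb of the longest protein-coding transcript in GENCODE release 29. Summed drug exporter levels were 74.3 ± 2.01 CPM per kb in PC (SD, n = 3), 67.0 ± 6.7 in TSC (n = 3) and 57.1 ± 7.5 in CTC (n = 2), and ABCC2 supplied 48.7% to 61.9% of the sum in each library. Summed lipid exporter levels were 1.15 ± 0.654 CPM per kb in PC, 0.526 ± 0.4 in TSC and 10.1 ± 6.07 in CTC. The lipid sum was thus 0.626% to 2.37% of the drug sum in PC libraries, 0.0863% to 1.23% in TSC libraries, and 23.0% and 11.2% in CTC replicates 1 and 2. The TSC value of 0.0863%, from replicate 1, rests on a single count of ABCG1. No test was made of these sums, since members were chosen with results known. Against PC the fold changes of the 8 tested drug exporters in CTC had a median of −0.37, with 1 called lower and 7 not called, against −0.04 over all 14255 tested genes, whereas ABCA1 and ABCG1 were at 4.08 and 1.56. In TSC against PC the same drug exporters had a median of 0.09, with 6 positive, 2 negative and 0 called, and ABCA1 and ABCG1 were at −2.12 and −0.58. Over all tested genes, 49.1% had a negative fold change there and 0.505% were called. TSC and CTC were both set against the same PC libraries.

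**Figure D3:**
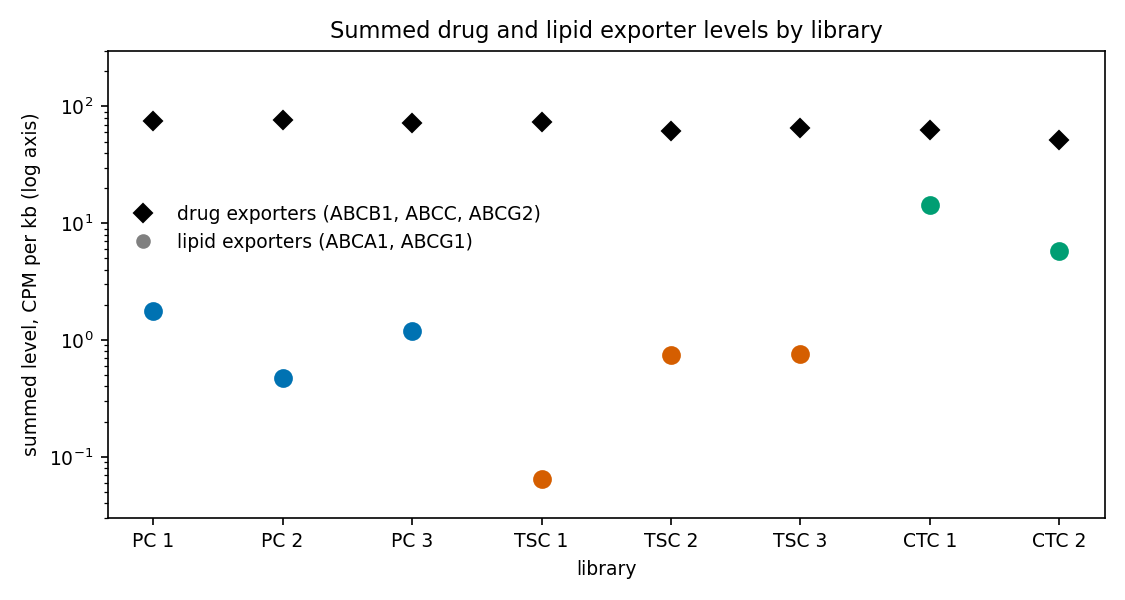
Summed levels of the drug exporters (black diamonds) and of ABCA1 and ABCG1 (circles, PC blue, TSC orange, CTC green) in each library, in CPM per kb of transcript on a log axis. Drug sums lie between 51.8 and 75.8 in all libraries, while lipid sums reach 14.4 and 5.80 in CTC and at most 1.78 elsewhere.

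Other sterol and lipid transporters were not called in any comparison. Of 15 rows, 9 were tested, and in CTC against PC all 9 had negative fold changes with a median of −0.80, 0 were called by edgeR and 2 had an unadjusted p under 0.05. Over all tested genes, 52.6% had a negative fold change and 23.6% an unadjusted p under 0.05. ABCA2, a lysosomal sterol and sphingolipid transporter, was at 100, 90.8 and 133 CPM in PC, 38.3, 91.8 and 73.5 CPM in TSC and 58.9 and 58.0 CPM in CTC. Both CTC libraries were below PC (−0.89 ± 0.31, edgeR adjusted p = 0.106), and TSC replicate 1 was the lowest library of all (TSC against PC −0.66 ± 0.26, edgeR adjusted p = 0.406). ABCA7, a phospholipid exporter close to ABCA1 in sequence, was at 49.5 to 53.9 CPM in PC, 34.1 to 58.8 CPM in TSC and 40.9 and 22.7 CPM in CTC (CTC against PC −0.84 ± 0.29, edgeR adjusted p = 0.108). ABCA3, the lung surfactant lipid transporter, and ABCA5 overlapped between all groups, at 7.98 to 32.7 and 7.98 to 12.9 CPM. ABCA12, the epidermal lipid transporter, was at 5.98 CPM in CTC replicate 1 and 0.381 CPM in replicate 2, so CTC spanned the whole range. ABCA4, ABCA6, ABCA10 and ABCG4 were at or below 2.45 CPM in every library.

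ABCD2, the peroxisomal transporter of very long-chain fatty acids, was the other member that rose in CTC. It lies on chromosome 12 (39531025 to 39619803, hg38). It had 0 counts in all 3 PC libraries, 3 counts in TSC replicate 2 and none in the other TSC libraries, and 4 and 42 counts in CTC replicates 1 and 2, which are 3.99 and 4.01 CPM. With 3 counts over the PC group as the floor, the pooled CTC level of ABCD2 was 56.2-fold above PC (edgeR adjusted p = 0.0220, n = 2 and 3). That figure allows for counting error in PC only, not in the CTC counts. The gene passed the filter on low counts only through CTC, so some difference was built into its test. The call was lost without PC replicates 1, 2 or 3 (edgeR adjusted p = 0.0642, 0.0652 and 0.0773). Pooled TSC libraries were at 0.0252 times the CTC level (95% exact interval 0.00502 to 0.0784, counting error only), which edgeR did not call (adjusted p = 0.105). Between CTC replicates 1 and 2 the ratio of ABCD2 was 0.996, with a 95% exact interval of 0.259 to 2.75 for counting error. That interval spans the 2.70 of the leukocyte list and also the opposite direction of the erythroid list (195 and 252 CPM). The part of blood cells in the ABCD2 level was not tested.

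The other peroxisomal and lysosomal transporters showed no called difference. ABCD3, which brings branched and long-chain acids into peroxisomes, was at 53.5 to 66.2 CPM in PC, 56.2 to 107 CPM in TSC and 84.8 and 66.6 CPM in CTC (CTC against PC 0.33 ± 0.26, edgeR adjusted p = 0.462). ABCD4, needed for lysosomal cobalamin release, was at 14.3 to 29.4 CPM over all libraries. Per length, ABCD3 stood at 16.7, 22.3 and 21.4 CPM per kb in PC, TSC and CTC (means).

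Mitochondrial members include transporters needed for haem formation. All 4 were tested, and all were positive in TSC against PC, with a median of 0.25, 0 calls by edgeR and 1 unadjusted p under 0.05. Over all tested genes, 49.1% had a negative fold change there and 10.3% an unadjusted p under 0.05. ABCB10, an inner-membrane transporter needed for haem synthesis, was at 26.9, 27.5 and 20.3 CPM in PC and 51.3, 27.9 and 42.2 CPM in TSC, with every TSC library above PC. This was not called (0.69 ± 0.26, edgeR adjusted p = 0.377), and CTC was at 22.9 and 40.7 CPM. ABCB8 was at 11 to 27.5 CPM and ABCB6 at 8.01 to 19.2 CPM over all libraries. ABCB9, a lysosomal peptide transporter, was lower in both CTC libraries (4.99 and 3.91 CPM) than in PC (10.9 to 12.4 CPM) and in TSC (5.57, 10.4 and 10.9 CPM). ABCB9 was not called in CTC against PC (−1.45 ± 0.43, edgeR adjusted p = 0.0696) or TSC against CTC (1.12 ± 0.43, edgeR adjusted p = 0.214).

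Members without membrane domains were among the most abundant. ABCE1, which splits ribosomes for recycling, had the highest level of the family per length, 57.3, 69.2 and 82.9 CPM per kb in PC, TSC and CTC, followed by ABCC2 at 44.7, 37.0 and 28.4. ABCE1 was at 220, 249 and 204 CPM in PC, 350, 201 and 264 CPM in TSC and 330 and 320 CPM in CTC. Both CTC libraries lay above PC, and the difference was not called (0.53 ± 0.21, edgeR adjusted p = 0.152). ABCF3, at 52.9 to 72.7 CPM, and ABCF2, at 22.9 to 39.0 CPM, are ribosome-associated ATPases. ABCF3 was the steadiest of the members named here, at 23.9, 24.2 and 23.9 CPM per kb in PC, TSC and CTC.

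**Figure D4:**
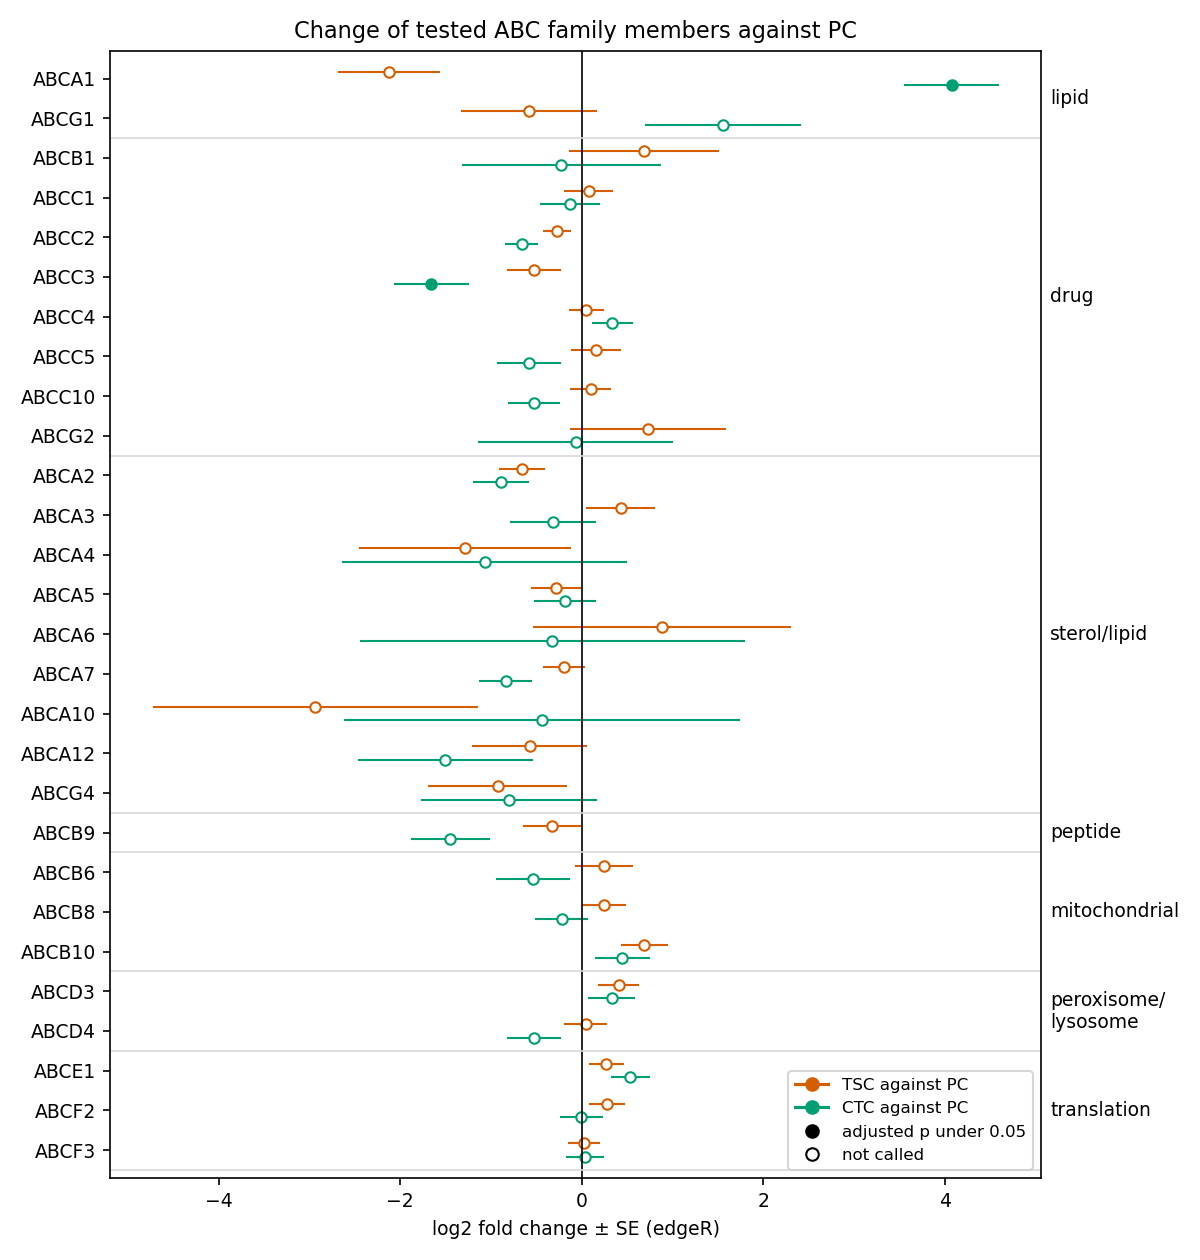
Fold changes of 28 of the 31 tested members against PC on the log2 scale with their SE, TSC in orange and CTC in green, grouped by role; filled points passed an adjusted p of 0.05. The 3 members not drawn are ABCD2, whose PC libraries are all at 0, and others whose own values are not reported here. ABCA1 in CTC (4.08) and ABCC3 in CTC (−1.66) are the filled points.

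Partners of ABCA1 and ABCG1 in sterol handling changed unevenly in CTC. Of 30 listed LXR regulators, LXR targets and sterol efflux genes, 24 were tested, with 3 higher and 2 lower in CTC against PC, a median of −0.15 and 19 not called, beside 1.4% higher and 2.52% lower among all tested genes. APOE, an LXR target that macrophages secrete as a lipid acceptor, was at 208 and 98.8 CPM in CTC and 0.552 to 3.02 CPM in PC (6.51 ± 0.51, edgeR adjusted p = 9.14e-06). SMPDL3A, an LXR target that encodes a phosphodiesterase, was at 14.0 and 14.7 CPM in CTC and 0.883 to 3.40 CPM in PC (2.57 ± 0.60, edgeR adjusted p = 0.0301). These 2 genes were also the members of the list called in TSC against CTC, both lower in TSC (edgeR adjusted p = 4.78e-05 and 0.0434). Among all tested genes 0.526% were called lower in that comparison. NCEH1, which encodes a cholesteryl ester hydrolase, rose in both groups, from 12.7 to 15.0 CPM in PC to 26.0 to 43.9 CPM in TSC (1.29 ± 0.24, edgeR adjusted p = 0.0255) and 28.9 and 41.6 CPM in CTC (1.38 ± 0.27, edgeR adjusted p = 0.0146). It was the member of the list called in TSC against PC, where 0.505% of all tested genes were called.

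Other LXR-linked genes fell or were not called. SREBF1, a lipogenic LXR target, was at 231 to 250 CPM in PC and fell to 128 and 106 CPM in CTC (−1.06 ± 0.25, edgeR adjusted p = 0.0338). The LXR genes themselves were not called in CTC against PC: NR1H2 was at 22.9 and 31.4 CPM in CTC and 28.1 to 35.6 CPM in PC, and NR1H3 at 17 and 7.25 CPM and 8.46 to 9.80 CPM. LPCAT3, a phospholipid remodelling LXR target, was not called in TSC against PC (0.46 ± 0.21, edgeR adjusted p = 0.456).

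Partners of the drug exporters, 34 genes of xenobiotic sensing and conjugation, showed 1 call among the 18 tested, in CTC against PC, where 3.92% of all tested genes were called. Of the 34 genes 8 were at 0 in every library, among them NR1I2, the xenobiotic receptor that induces ABCB1, and CYP3A4. AHR, a receptor for aromatic compounds that induces ABCG2 in some cells, was at 61.8 to 76.7 CPM in PC, 84.5 to 93.2 CPM in TSC and 102 and 124 CPM in CTC, and was called higher in CTC against PC (0.73 ± 0.19, edgeR adjusted p = 0.0464). The quinone reductase gene NQO1 (TSC against PC 0.47 ± 0.18, edgeR adjusted p = 0.388), the vault protein gene MVP (0.43 ± 0.19, edgeR adjusted p = 0.452) and the glutathione synthesis gene GCLC (CTC against PC 0.59 ± 0.22, edgeR adjusted p = 0.133) were not called. GSTA4 was at 0 in both CTC libraries and at 0.565 to 1.09 CPM in the others, and SLC22A18 was at 0.0954 to 4.90 CPM over all libraries; neither was called in TSC against CTC. Of the family members that the symbol rule misses, TAP2 was at 0 to 2.29 CPM with overlap of all groups and CFTR had 1 count in all.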

How the data were processed

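Libraries of 8 samples were made from RNA depleted of ribosomal RNA, per the labels' protocols. The deposited values are whole-number counts per gene symbol, with no normalization. The submitters' processing notes name STAR 2.5.3a, featureCounts 1.5.3 and hg38. No source used here gives the annotation, how strand and multi-mapping reads were handled, or whether host reads were removed. Overlapping members (ABCA5 and ABCA10, ABCA6 and ABCA9, ABCG5 and ABCG8) may therefore share reads, and ABCC6 has near-identical pseudogenes.

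The main test was edgeR 4.0.16 under R 4.3.3: filterByExpr by group, TMM, glmQLFit and glmQLFTest on all 8 libraries with group as the factor. Calls needed an adjusted p under 0.05 (Benjamini-Hochberg, 14255 genes). SE is the size of the log2 fold change over the square root of F. Of 28 library pairs, 0 agreed within sampling noise.

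Members and lists were chosen with earlier results of these data known. Named in full are called members, all tested drug and lipid exporters, and in each comparison the 3 uncalled members with the smallest p. From each partner list, called genes and the 2 genes with the smallest p are named. NR1H2, NR1H3, NR1I2, CYP3A4 and the markers named singly were picked after their values were seen. Alternatives were DESeq2 size factors, no filter, a stricter filter (1 CPM in 3 libraries), DESeq2 1.42.0, limma-voom (limma 3.58.1) with quality weights, only the compared groups, a replicate block and leaving out each library. In simulated counts the test recovered 47.4% of 2-fold and 71.9% of 4-fold changes in TSC against PC (13799 genes). It recovered 24.5% and 68.4% in CTC against PC (13841 genes). Recovery in TSC against CTC was 32.7% and 67.3% (13805 genes). Positions and promoters are 1-based, from RefSeq on GRCh38.p14. A few genes of the family and of the lists enter the counts and medians, but their own values are not reported here.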

Additional observations from a re-analysis of the deposited data

Results flagged for a closer look

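ABCA1 differed in its effect between the circulating and the self-seeded cells. Against the same PC libraries its log2 fold change was 4.08 in CTC and −2.12 in TSC, and the test of the difference itself, TSC against CTC, gave −6.20 ± 0.60 (edgeR adjusted p = 0.000117, n = 3 and 2). All 3 TSC libraries (0 to 1.91 CPM) lay below all 3 PC libraries (2.76 to 6.28 CPM), and both CTC libraries (47.9 and 115 CPM) above them. The fall in TSC on its own was not called (edgeR adjusted p = 0.147). With each of the 8 libraries left out in turn the difference ran from −7.46 to −5.51 and was called in all 8 fits. Dixon's check for an outlying library was not made, since it needs groups of 4 or more.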

How the results depend on the processing

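Family calls were few and moved with single libraries. In CTC against PC, 2 members higher became 1 with a stricter filter, 1 with the replicate block and 1 to 2 with a library left out; 1 member lower became 5 with no filter, 2 by DESeq2, 5 by limma-voom, 4 with only the 2 groups, 0 with the replicate block and 0 to 5 with a library left out. In TSC against CTC, 1 lower became 2 (ABCA1 and ABCD2) with no filter, by DESeq2 and by limma-voom, and 0 higher became 0 to 1 with a library left out. In TSC against PC, 0 lower became 2 with no filter (ABCA1 and ABCA2) and 0 to 1 with a library left out. The further members called lower in CTC under some alternative were ABCC2, ABCA2, ABCA7, ABCB9 and ABCA12, and ABCE1 was called higher with only the 2 groups. With the replicate block ABCC3 (adjusted p = 0.0665) and ABCD2 (adjusted p = 0.0986) were not called and ABCA1 stayed called. Deviations of same-numbered libraries from their group means had correlations of −0.20 to 0.107. With 2 or 3 libraries a group, of unequal depth, these cannot settle whether the numbers mark pairs. Calls over all genes were 72 in TSC against PC (355 with no filter, 191 by DESeq2, 553 by limma-voom, 128 with only the 2 groups, 10 to 153 with a library left out), 559 in CTC against PC (1535, 1125, 1660, 1409, 261 with the replicate block, 35 to 1575) and 128 in TSC against CTC (728, 390, 440, 82, 61 with the replicate block, 58 with the stricter filter, 36 to 696). Why these counts moved was not tested. The drug to lipid ratio of TSC replicate 1, 1159 per kb, became 1933 when CPM was not divided by length, both resting on 1 lipid exporter count. No member called in the main analysis changed sign under these alternatives. ABCA12 in CTC against PC, called lower by limma-voom (−2.86) and without CTC replicate 1 (−3.64), was at 0.29 without CTC replicate 2.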

Other observations

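Members that lie side by side in the genome differed in level. On chromosome 17, ABCA8, ABCA9, ABCA6, ABCA10 and ABCA5 follow each other between 68867289 and 69327133 (hg38). ABCA5 had 900 counts over all libraries, whereas ABCA8 and ABCA9 had 1 count each, ABCA10 had 27 and ABCA6 had 42. On chromosome 7, ABCB4, a phosphatidylcholine exporter, ends at 87476027 and ABCB1 begins at 87503017. ABCB1 was detected in all 8 libraries, while ABCB4 had 0 counts in PC and TSC and 4 counts in each CTC library (3.99 and 0.381 CPM). The pooled CTC level of ABCB4 was 9.77-fold above a floor of 3 counts over PC. That figure allows for counting error in PC only, not in the few CTC counts. No test was made, since ABCB4 did not pass the filter. On chromosome 16, ABCC1 (15949143 to 16143053) had 1161 counts and its neighbour ABCC6 (16149565 to 16223494) had 4.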
